A study of Homo sapiens with 8 samples.

Results

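The 9 genes described here make up the HLA class I antigen presentation pathway: the heavy chain genes HLA-B, HLA-C, HLA-E and HLA-F, the light chain gene B2M, the peptide transporter genes TAP1 and TAP2, the loading factor tapasin (TAPBP) and the trimming peptidase ERAP1. Their probe sets, the groups of short DNA probes that report a transcript on an Affymetrix array, were found by the gene symbol in the platform annotation. Of 19775 genes with a probe set of their own in the annotation these are 9, and they hold 29 of 54613 probe sets, none of them assigned to more than 1 gene, and 24 of the 29 were bright enough to be tested. RNA came from the small and the large fraction of H1, a human embryonic stem cell (hESC) line in wide use, cultured on gelatinized plates with an irradiated MEF (mouse embryonic fibroblast) feeder layer. Cells were sorted by their forward scatter and side scatter of light, which follow size and granularity, and each fraction was collected in 4 sorts, called biological repeats in the labels, with 1 array of the Human Genome U133 Plus 2.0 design per sort. Both fractions came from the same line without a drug or a genetic change, and the labels name no culture or day that a small and a large sort shared. The p-values measure the spread between these sorts.

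Class I molecules display peptides from inside the cell to CD8+ T cells. Proteasomes cut proteins into peptides, TAP1 and TAP2 together pump them into the endoplasmic reticulum, ERAP1 trims them, and tapasin holds empty heavy chain and beta-2-microglobulin dimers at the transporter until a peptide fits. Human embryonic stem cells are known for low class I surface levels that interferon can raise.

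On the brightest probe set of each gene, mean levels of the 9 genes were lower in small than in large cells, by about 2-fold for HLA-B and HLA-C and by less for the others. None of the genes or their probe sets passed the test over the whole array with 4 against 4 unpaired arrays. With same-numbered sorts taken as a block, HLA-B, HLA-C and B2M passed (limma, adjusted p = 0.00274, 0.00754 and 0.0453), among 753 genes called. The labels do not say whether equal numbers are pairs. For HLA-E, HLA-F, TAP2, TAPBP and ERAP1 other probe sets of the same gene had differences above 0. HLA-B had a log2 difference (small minus large) of -1.13 ± 0.33 (SE, n = 4 per group; limma, adjusted p = 0.106) and HLA-C of -1.03 ± 0.35 (adjusted p = 0.158), while B2M had a difference of -0.45 ± 0.14 (adjusted p = 0.126). On these brightest probe sets all 9 genes were below 0, from -1.13 to -0.30, with a median of -0.55. The median of all 14726 genes was 0.05, and 44% of them were below 0. At an adjusted p under 0.05, 0 of the 9 genes passed in either direction, against a background of 1.99% of all genes in either direction and 1.69% lower. At an unadjusted p under 0.05, 7 of the 9 were lower, against 8% of all genes. All 4 small values lay below all 4 large values for 2 of the 9, B2M and TAP1, against 5.07% of all genes. The 9 genes were chosen with earlier results of these data known, so these shares describe them and do not test an excess. The levels are relative to the RNA hybridised and not amounts per cell, and in such bulk samples fewer cells of a kind and less RNA per cell cannot be told apart.

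Before hybridisation levels are compared, some facts of the arrays matter. The 75th percentile of the deposited intensities had a 2.52-fold range over the 8 arrays, so the arrays were quantile normalized. The 3 prime probe sets of the GAPDH and ACTB controls exceeded the 5 prime ones, a sign of RNA quality, by a mean log2 value of 1.94 to 2.66 on the small arrays. The same value was 2.91 on large array 1 and 1.83 to 1.89 on large arrays 2 to 4. Large array 1 was also the lowest large array on 7 of 7 HLA-B and HLA-C probe sets, and results that rest on it are given with and without it. Of 10 markers of pluripotent stem cells, 8 had a probe set of their own and all 8 were tested, with 0 called (unadjusted p under 0.05 for 0, limma). Their summed normalized intensity was 17317 to 19427 on small and 18526 to 20603 on large arrays. The 7 neural progenitor markers measured, of 8 listed, summed to 1232 to 1357 on small and 990 to 1104 on large arrays. None was called, and 4 were higher at an unadjusted p under 0.05 (limma), against 1253 of all 14726 genes. The sum is mostly OTX2 and NES, with mean log2 levels of 9.33 and 8.77 in small and 9.02 and 8.56 in large cells. The next brightest, FABP7, was at 6.09 and 6.02. Of 8 leukocyte markers 7 were measured, and PTPRC, CD14, LYZ and HLA-DRA were below the filter on dim probe sets. The list's sum was 72 to 164 on small and 80 to 147 on large arrays. On its brightest probe set AIF1 was called higher in small cells (1.64 ± 0.38, limma, adjusted p = 0.0464), but 1 of its 3 tested probe sets was below 0. CD74 of the same list was lower on all small arrays (-0.60 ± 0.25, adjusted p = 0.255), and CD3E was at 0.32 ± 0.44. The fibroblast list summed to 1160 to 2106 on small and 1463 to 2812 on large arrays, the trophoblast list to 206 to 254 and 206 to 294, and the endoderm list to 175 to 453 and 150 to 320. The part of the neural markers and of RNA quality in the class I values was not tested, except that a fit with that 3 prime excess as a covariate put HLA-B at -0.93, HLA-C at -0.81 and B2M at -0.48.

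The promoters of these genes are known for control elements of which each gene holds some or all: an interferon response element, a kappaB site called enhancer A, and an X2 box and Y box bound by a complex that the coactivator NLRC5 joins. The promoter table used here, from RefSeq (GRCh38.p14), was matched to 8 of the 9 genes (HLA-E was not matched). The bases just before the start are shown for 7 of them, each with at least 1 match to these elements and a difference below 0 on the gene's brightest probe set. ERAP1, also with a match and -0.56 on its brightest probe set, is not shown. The sequences printed are a selection. These are reference sequences and not read from H1. Capitals mark matches, on either strand, to GAAA, any 2 bases and GAAA (the interferon response element in its full spacing), to GAANNGAAA (the same in a shorter spacing), to GGGGATTC (enhancer A), to TGACG (core of the X2 box) and to GATTGG (Y box).
HLA-B, chr6:31357180-31357369, minus strand: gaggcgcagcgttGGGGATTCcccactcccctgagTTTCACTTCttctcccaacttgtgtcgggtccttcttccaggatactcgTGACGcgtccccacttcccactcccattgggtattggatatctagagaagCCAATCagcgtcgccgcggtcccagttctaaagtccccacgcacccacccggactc
HLA-C, chr6:31272093-31272282, minus strand: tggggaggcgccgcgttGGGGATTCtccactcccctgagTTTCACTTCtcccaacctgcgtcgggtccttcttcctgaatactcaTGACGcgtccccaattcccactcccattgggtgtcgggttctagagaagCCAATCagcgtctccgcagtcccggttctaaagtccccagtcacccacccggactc
HLA-F, chr6:29723244-29723433, plus strand: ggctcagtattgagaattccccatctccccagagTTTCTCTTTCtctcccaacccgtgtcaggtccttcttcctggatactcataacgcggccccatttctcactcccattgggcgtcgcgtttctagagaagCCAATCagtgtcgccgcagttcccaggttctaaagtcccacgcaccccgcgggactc
B2M, chr15:44711327-44711516, plus strand: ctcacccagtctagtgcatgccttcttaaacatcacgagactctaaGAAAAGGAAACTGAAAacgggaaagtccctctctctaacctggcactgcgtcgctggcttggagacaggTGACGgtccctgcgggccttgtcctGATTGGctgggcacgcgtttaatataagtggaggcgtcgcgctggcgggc
TAP1, chr6:32853705-32853854, minus strand: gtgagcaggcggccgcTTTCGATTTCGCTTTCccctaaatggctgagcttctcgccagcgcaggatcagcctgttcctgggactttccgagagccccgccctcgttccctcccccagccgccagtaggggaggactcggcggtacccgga
TAP2, chr6:32838740-32838829, minus strand: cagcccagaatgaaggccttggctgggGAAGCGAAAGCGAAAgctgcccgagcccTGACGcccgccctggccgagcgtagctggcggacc
TAPBP, chr6:33314079-33314168, minus strand: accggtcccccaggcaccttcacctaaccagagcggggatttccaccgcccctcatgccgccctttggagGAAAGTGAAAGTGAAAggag

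Each motif was searched in the 250 bases before the start of 35116 promoters. The full interferon spacing stood before 5 of the 8 genes (B2M, HLA-F, TAP1, TAP2 and TAPBP) and in 3.02% of all promoters, and in B2M, TAP1 and TAPBP it stood in 2 overlapping copies. The shorter GAANNGAAA stood before HLA-B, HLA-C, TAP2 and ERAP1, 4 of the 8, and in 6.56% of all promoters; in TAP2 it overlaps the longer form. GGGGATTC was present before HLA-B and HLA-C and in 0.772% of all promoters. TGACG, present in 21.2% of all promoters, stood before HLA-B, HLA-C, B2M and TAP2, and GATTGG, present in 14.1%, before HLA-B, HLA-C, HLA-F and B2M. Over the 190 bases shown, HLA-B and HLA-C were identical at 170 bases (89.5%) and HLA-B and HLA-F at 158 (83.2%), while HLA-B and B2M shared 104 (54.7%). A match of letters is a description of the reference and not a measured binding site.

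**Figure D1:**
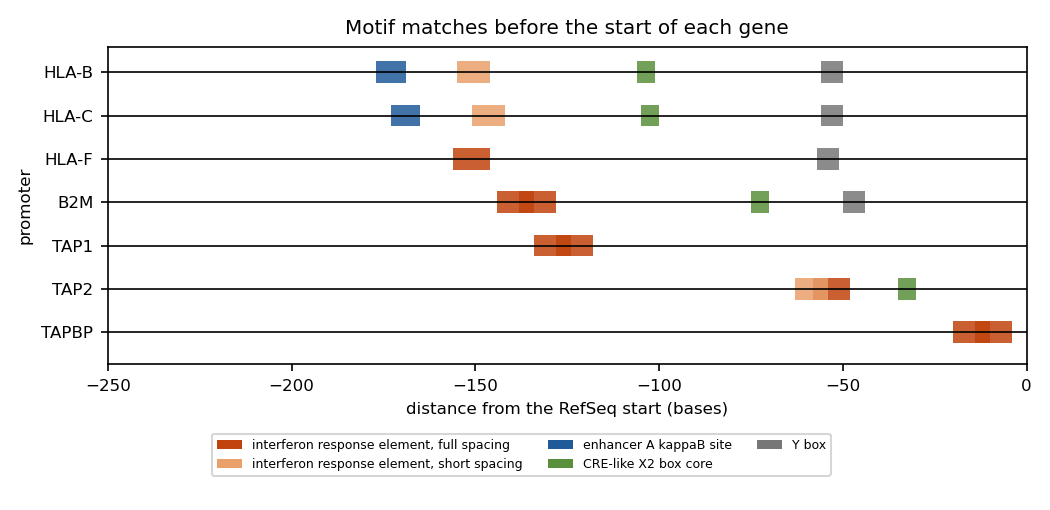
Motif matches in the 250 bases before the RefSeq start of 7 genes, with the distance from the start in bases on the horizontal axis and 1 line per promoter. HLA-B and HLA-C carry the same 4 kinds of match in the same order, and TAP1 and TAPBP carry 2 overlapping copies of the full interferon response element and none of the others.

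The classical heavy chain gene HLA-B, whose product presents peptides to CD8+ T cells, was represented by probe set 209140_x_at. Its log2 level was 6.92, 7.43, 8.02 and 8.21 on small arrays 1 to 4, against 7.77, 9.04, 8.89 and 9.39 on large arrays 1 to 4. Large array 1 lay within the small values, and the other 3 large arrays lay above all of them. The means were 7.65 ± 0.59 in small and 8.77 ± 0.70 in large cells (SD, n = 4), 2.18-fold lower in small cells. Without large array 1 the difference was -1.46 and passed the limma test (adjusted p = 0.0161). The deposited intensities behind these levels, before any scaling, were 111, 119, 458 and 221 units on the small arrays and 132, 449, 789 and 815 on the large arrays. The other 2 HLA-B probe sets had differences of -0.71 ± 0.24 (211911_x_at) and -0.57 ± 0.24 (208729_x_at, SE). On 211911_x_at the 4 small levels were 6.35 to 7.31 and the 4 large levels 7.36 to 7.95, without overlap.

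HLA-C, also a classical heavy chain gene and a ligand of inhibitory receptors on natural killer cells, was represented by 216526_x_at. Its log2 level was 7.92, 8.31, 8.90 and 9.31 on small arrays 1 to 4, against 8.48, 10.02, 10.02 and 10.03 on large arrays 1 to 4. Large arrays 2 to 4 were nearly equal and above every small array, while large array 1 was lower than small arrays 3 and 4. The means were 8.61 ± 0.62 in small and 9.64 ± 0.77 in large cells (SD, n = 4), 2.04-fold lower in small cells. Without large array 1 the difference was -1.41 (limma, adjusted p = 0.0161). The other 3 HLA-C probe sets had differences between -0.99 and -0.75. Small array 4 was the highest small array on all 7 HLA-B and HLA-C probe sets, and small array 1 the lowest on 5 of them. All 7 end in _x_at, a suffix for probe sets whose probes can bind several transcripts, so HLA-B and HLA-C are uncertain as separate measurements.

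**Figure D2:**
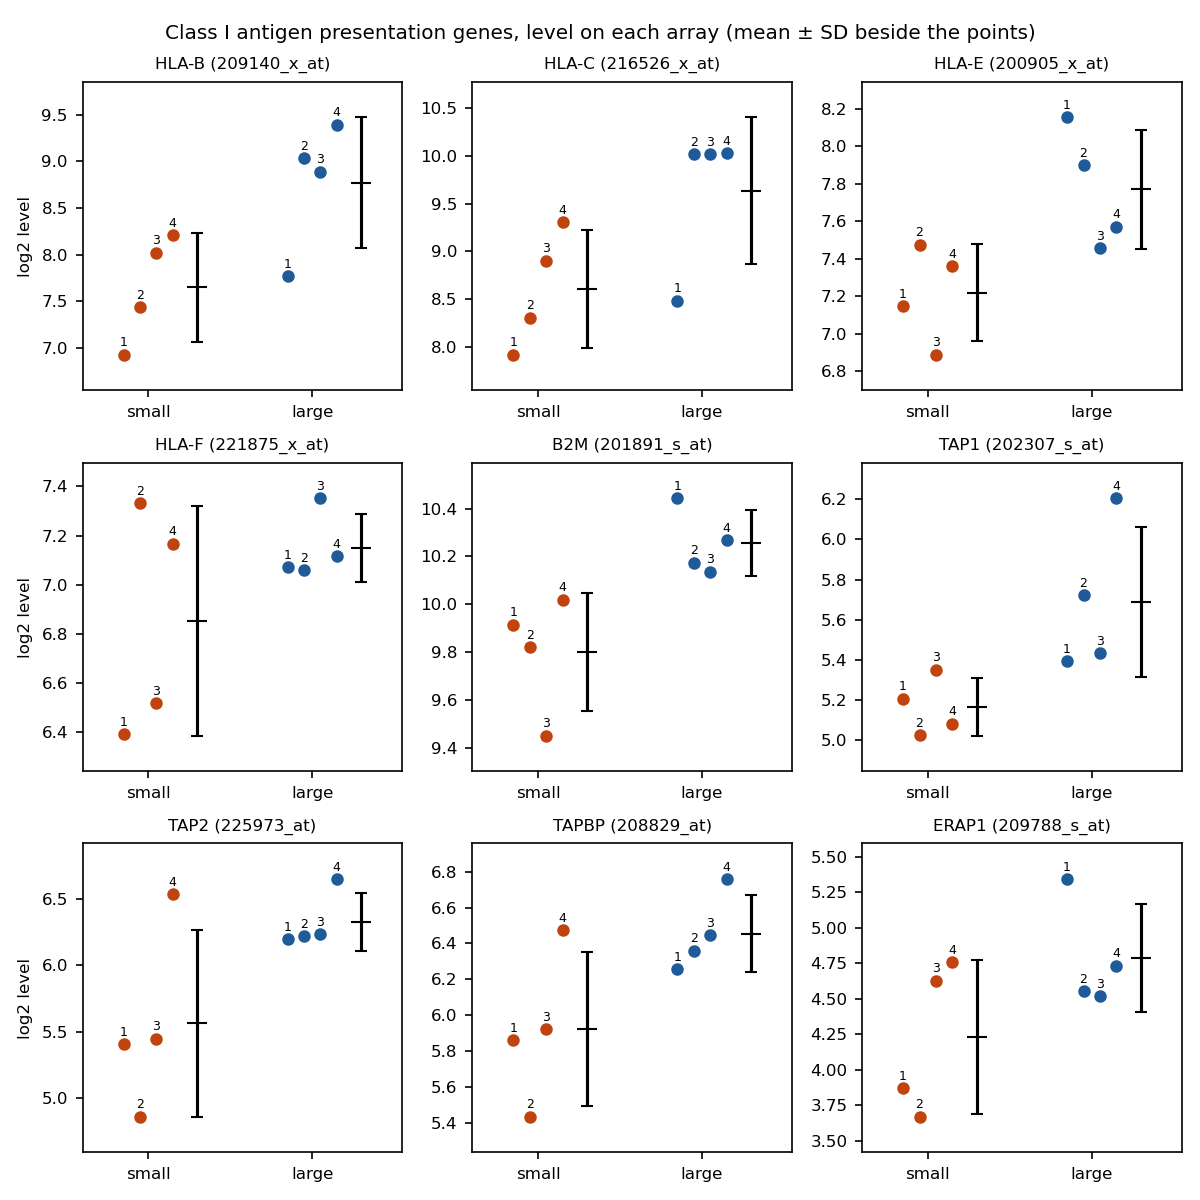
Log2 level of each gene's brightest tested probe set on the 4 small (left, orange) and 4 large (right, blue) arrays, numbered by replicate, with the mean and SD beside the points. B2M and TAP1 do not overlap between fractions, and for HLA-B and HLA-C large array 1 lies within the small values.

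The nonclassical heavy chain gene HLA-E encodes the ligand of the receptor CD94/NKG2A on natural killer cells. On 200905_x_at its log2 level was 7.15, 7.48, 6.89 and 7.36 on small arrays 1 to 4, against 8.15, 7.90, 7.46 and 7.57 on large arrays 1 to 4. The fractions met at 7.48 (small array 2) and 7.46 (large array 3), and here large array 1 was the highest of all 8 arrays. The difference was -0.55 ± 0.20 (SE; limma, adjusted p = 0.181). The probe sets disagreed, with -0.19 ± 0.20 on 217456_x_at and 0.35 ± 0.31 on 200904_at, whose name has no suffix for shared binding.

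HLA-F, a nonclassical gene whose product binds receptors of natural killer cells also without a peptide, had 3 probe sets with unlike values. On the brightest, 221875_x_at, small arrays 1 to 4 were at 6.39, 7.33, 6.52 and 7.17 and large arrays 1 to 4 at 7.07, 7.06, 7.35 and 7.12. Small arrays 1 and 3 lay below every large array and small arrays 2 and 4 among the large ones, and the difference was -0.30 ± 0.22 (SE; limma, adjusted p = 0.555). On 204806_x_at the small arrays were at 5.82, 6.15, 5.84 and 6.48 and the large arrays at 6.44, 7.15, 7.09 and 7.09. Large array 1 was here just below small array 4, and all other small values lay below all large ones. This probe set had the smallest adjusted p of the 24, with a difference of -0.87 ± 0.23 (limma, adjusted p = 0.0816). Large array 1 was its lowest large array, so leaving that array out had to enlarge the difference. The probe set then passed (-1.04, limma, adjusted p = 0.0297), among 794 probe sets called. The third, 221978_at, was at 0.18 ± 0.36.

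B2M encodes beta-2-microglobulin, the light chain without which class I heavy chains do not reach the surface. On 201891_s_at its log2 level was 9.91, 9.82, 9.45 and 10.02 on small arrays 1 to 4, against 10.44, 10.17, 10.14 and 10.27 on large arrays 1 to 4. Every small array lay below every large one, by 0.45 between the means of 9.80 ± 0.25 and 10.26 ± 0.14 (SD, n = 4), or 1.37-fold lower in small cells. Unlike HLA-B and HLA-C, B2M had its highest value on large array 1. The difference was -0.34 to -0.53 with 1 array left out and between -0.30 and -0.48 under the scalings and the covariate tried. On 216231_s_at small array 3 was at 6.69 and the other small arrays at 8.27 to 8.37, against 7.77 to 8.83 on the large arrays. The difference of -0.38 ± 0.34 there was 0.02 without small array 3. The third B2M probe set, 232311_at, was below the filter, at 1.49 to 2.31 on small and 2.04 to 4.01 on large arrays.

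**Figure D3:**
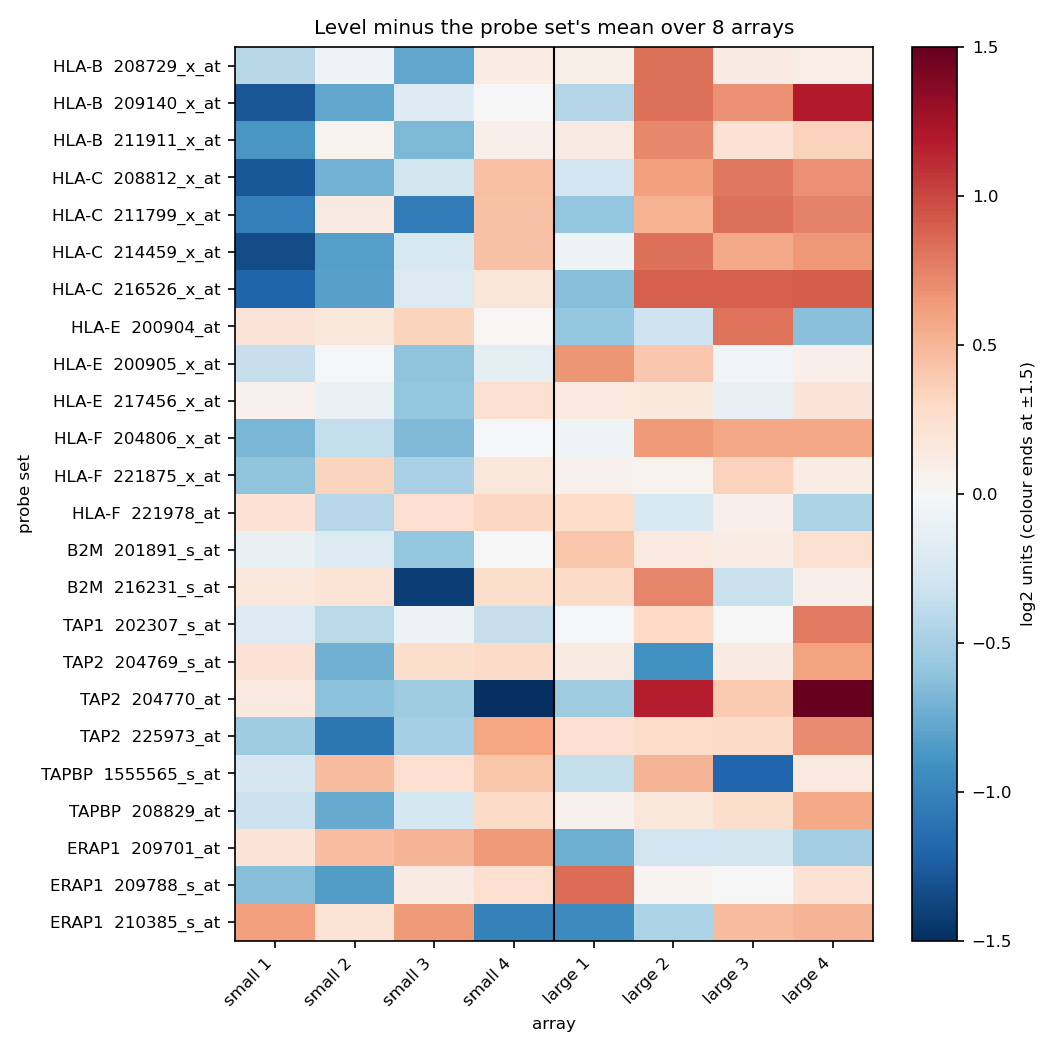
Level of each of the 24 tested probe sets on each array minus that probe set's mean over 8 arrays, in log2 units, with the small arrays left of the line. Most HLA-B and HLA-C cells are blue (low) on the small arrays and red on large arrays 2 to 4, while large array 1 is pale or blue on these probe sets and red for HLA-E 200905_x_at and B2M 201891_s_at.

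Both peptide transporter genes had lower mean levels in small cells. TAP1, with 1 probe set (202307_s_at), was at 5.21, 5.02, 5.35 and 5.08 on small arrays 1 to 4, against 5.39, 5.72, 5.43 and 6.21 on large arrays 1 to 4. The fractions did not overlap, but only 0.04 separated small array 3 and large array 1. The difference was -0.52 ± 0.24 (SE; limma, adjusted p = 0.298).

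TAP2 was at 5.41, 4.86, 5.45 and 6.54 on small arrays 1 to 4 and at 6.19, 6.22, 6.23 and 6.65 on large arrays 1 to 4, on 225973_at. Small array 4 lay among the large values, and the other 3 small arrays lay below all of them. The difference was -0.76 ± 0.30 (SE; limma, adjusted p = 0.223), and with 1 array left out it was -1.10 (without small array 4, adjusted p = 0.0401) to -0.53 (without small array 2, adjusted p = 0.454), passing only in the first of these 8 cases. Among the other TAP2 probe sets, 204770_at was at -1.31 ± 0.57 and 204769_s_at at 0.03 ± 0.35, and 208428_at was below the filter.

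TAPBP, which encodes tapasin, was represented by 208829_at. Its level was 5.86, 5.44, 5.92 and 6.47 on small arrays 1 to 4, against 6.26, 6.36, 6.45 and 6.76 on large arrays 1 to 4. Again small array 4 reached into the large values and the other small arrays did not. The difference was -0.53 ± 0.23 (SE; limma, adjusted p = 0.271). The other tested TAPBP probe set, 1555565_s_at, had a difference of 0.45 ± 0.35, and 210294_at was below the filter.

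ERAP1, which trims the ends of peptides in the endoplasmic reticulum, had probe sets that opposed each other. The brightest, 209788_s_at, was at 3.87, 3.67, 4.63 and 4.76 on small arrays 1 to 4, against 5.34, 4.56, 4.52 and 4.73 on large arrays 1 to 4. These ranges overlapped, with a difference of -0.56 ± 0.36 (SE; limma, adjusted p = 0.48). On 209701_at every small array (4.38 to 4.83) lay above every large array (3.46 to 3.91), a difference of 0.90 ± 0.33 (adjusted p = 0.202). The third tested probe set, 210385_s_at, was at 0.22 ± 0.50. Of the 2 below the filter, 214034_at was also higher on all small arrays (3.58 to 3.86) than on the large ones (2.14 to 3.51), and 214012_at overlapped. In the RefSeq gene table ERAP1 overlaps its neighbour CAST, the calpastatin gene, and the annotation used here names only ERAP1 for these probe sets. Whether 209701_at measures ERAP1 or its neighbour was not checked here, so its value may not be one of ERAP1, and no direction is given for the gene.

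**Figure D4:**
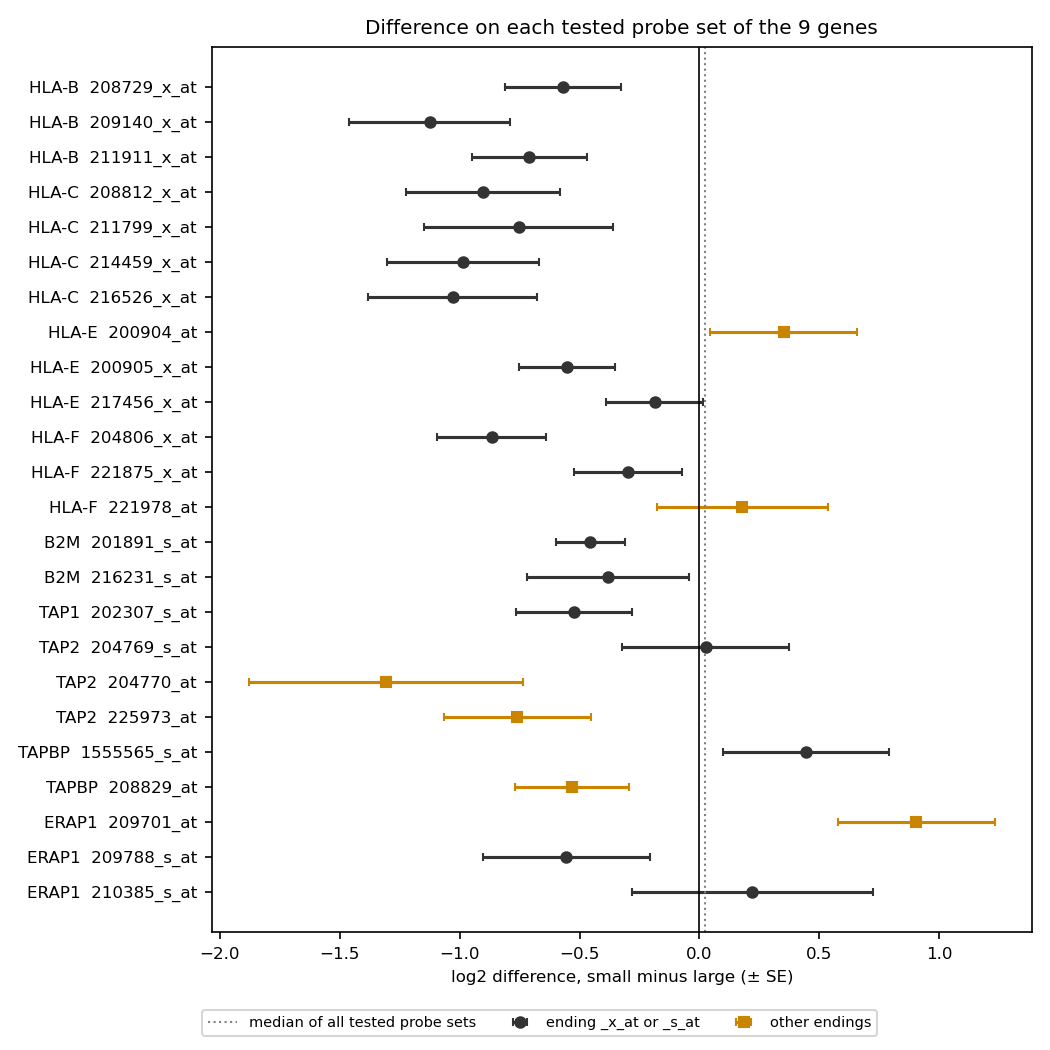
Log2 difference, small minus large, with its SE, on each of the 24 tested probe sets, by gene from top to bottom, and the median of all tested probe sets as a dotted line. The 7 HLA-B and HLA-C probe sets lie between -1.13 and -0.57, and 6 probe sets of other genes lie above 0.

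Over the 24 tested probe sets, 18 were below 0 and 6 above, with a median of -0.54, where all 32768 tested probe sets had a median of 0.02 and 47.6% below 0. At an adjusted p under 0.05, 0 of the 24 passed in limma, against a background of 1.5%, and at an unadjusted p under 0.05, 13 were lower and 1 higher, against 8.53% lower among all probe sets. All small values lay below all large ones on 3 of the 24, against 5.46%. The counts differed by kind of probe set: 15 of the 18 whose names end in _x_at or _s_at were below 0, with a median of -0.55, and 3 of the 6 others, with a median of -0.18. Among all tested probe sets the medians of these kinds were 0.05 and 0.01. The 24 are not independent, since several report the same transcript and the heavy chain probe sets can share targets.

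The values of HLA-B and HLA-C moved with the array left out. Without large array 1, 2 of the 9 genes passed, HLA-B and HLA-C, both lower, against a background of 3.76% of all genes, and the median of the 9 was -0.61. As that array was the lowest large one on every HLA-B and HLA-C probe set, leaving it out had to enlarge their differences. B2M (-0.389), HLA-E (-0.427) and ERAP1 (-0.375) moved nearer 0 without it. HLA-F, TAP1, TAP2 and TAPBP moved further below 0. Without any 1 of the other 7 arrays neither passed, and the smallest differences came without small array 1, at -0.88 for HLA-B (limma, adjusted p = 0.274) and -0.80 for HLA-C (adjusted p = 0.36). With all 8 arrays the spread among the large arrays was 0.70 for HLA-B and 0.77 for HLA-C (SD), against 0.14 for B2M.

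Among 7 lists of genes around the class I pathway, calls were made in 1, the partners that load peptides. Of 8 listed partners 5 were tested, all 5 were below 0 with a median of -0.87, and 3 were lower by the limma test, against 1.69% of all genes called lower and 44% below 0. The lists were chosen with earlier results of these data known, so these counts describe them and do not test an excess. PDIA3 encodes ERp57, the disulfide isomerase bound to tapasin. It was at 9.29, 9.58, 9.55 and 9.87 on small arrays 1 to 4, against 10.61, 10.63, 11.19 and 10.67 on large arrays 1 to 4, and fell by 1.20 ± 0.16 on the log2 scale (SE, adjusted p = 0.00651). UGGT1, which reglucosylates misfolded glycoproteins so that they bind calreticulin again, was 1.97-fold lower in small cells, at 7.18 to 7.71 on small and 8.30 to 8.51 on large arrays (adjusted p = 0.00907). The chaperone calnexin, CANX, which holds free heavy chains, was 1.83-fold lower, at 9.78 to 10.26 on small and 10.58 to 11.30 on large arrays (adjusted p = 0.0171). All 3 had no overlap between fractions, where 5.07% of all genes had every small value below every large one. As the 3 were named because they were called, this is no separate support. PDIA3 and UGGT1 passed with any 1 array left out, while CANX missed the threshold without small array 1 (adjusted p = 0.0662), small array 2 (0.0565), large array 3 (0.0571) or large array 4 (0.0577). All 3 calls were lost, with the direction kept, on the intensities as deposited, with median centring and without limma's variance trend, where 0 of all genes passed. They serve glycoproteins in general and not class I alone. Calreticulin, CALR, had a difference of -0.17 ± 0.23 and BCAP31, a cargo receptor of the endoplasmic reticulum, of -0.65 ± 0.27, and neither passed.

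Other class I genes had 8 of 14 listed genes tested, 6 of them below 0, with a median of -0.33 and 0 called. HLA-G, a nonclassical gene known from trophoblast, was at 6.59, 7.14, 6.50 and 7.61 on small arrays 1 to 4, against 7.49, 7.92, 7.82 and 7.84 on large arrays 1 to 4. Small array 4 alone reached the large values, and the difference was -0.80 ± 0.23 (SE; limma, adjusted p = 0.102) with all 4 HLA-G probe sets below 0. The stress ligand gene MICB had a difference of -0.35 ± 0.19 (adjusted p = 0.401).

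Proteasome subunits that supply the peptides mostly had values of the other sign. Of 9 listed 8 were tested, with a median of 0.22 and 0 called. Above 0 were 6 of the 8, where 8243 of all 14726 genes were, and PSMB5 (-0.16) and PSME3 (-0.17) were below. The immunoproteasome subunit PSMB8, whose gene lies between TAP2 and TAP1 in the RefSeq order, was at 6.10 to 6.51 on small arrays and at 4.40, 4.28, 6.30 and 6.10 on large arrays 1 to 4. The large arrays thus fell into a low and a high pair, with a difference of 1.05 ± 0.41 (SE; limma, adjusted p = 0.214). PSMB10 had a difference of 0.69 ± 0.25 (adjusted p = 0.178).

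Regulators of class I transcription had differences on both sides of 0. Of 13 listed 12 were tested, with a median of -0.03, 7 below and 5 above 0, 0 called and 0 at an unadjusted p under 0.05 (limma). RFX5, a subunit of the factor that binds the X box, was at 0.16 ± 0.14 (SE, adjusted p = 0.642) and NFKB1 at 0.26 ± 0.25 (adjusted p = 0.674). Of 10 interferon receptor and signalling genes 7 were tested, with a median of -0.07 and 0 called. The interferon gamma receptor gene IFNGR1 was at 7.15 to 7.50 on small and 7.84 to 8.21 on large arrays without overlap, a difference of -0.61 ± 0.16 (adjusted p = 0.0687). IFNAR2 was at 0.28 ± 0.21 (adjusted p = 0.546).

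Genes that interferon induces were split, 7 of 14 tested (of 16 listed) below and 7 above 0, with a median of 0.09 and 0 called. IFITM3, an antiviral membrane protein gene, was at 9.23 to 10.17 on small and 10.35 to 10.72 on large arrays, a difference of -0.75 ± 0.19 (SE; limma, adjusted p = 0.0581). MX1, an antiviral GTPase gene, had a difference of 0.91 ± 0.33 (adjusted p = 0.178). Class II genes, normally of antigen presenting cells, had 5 of 6 tested, a median of -0.10 and 0 called. The invariant chain gene CD74 was at 4.53 to 5.23 on small and 5.27 to 5.86 on large arrays (-0.60 ± 0.25, adjusted p = 0.255), and HLA-DMA was at -0.18 ± 0.21 (adjusted p = 0.733).

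**Figure D5:**
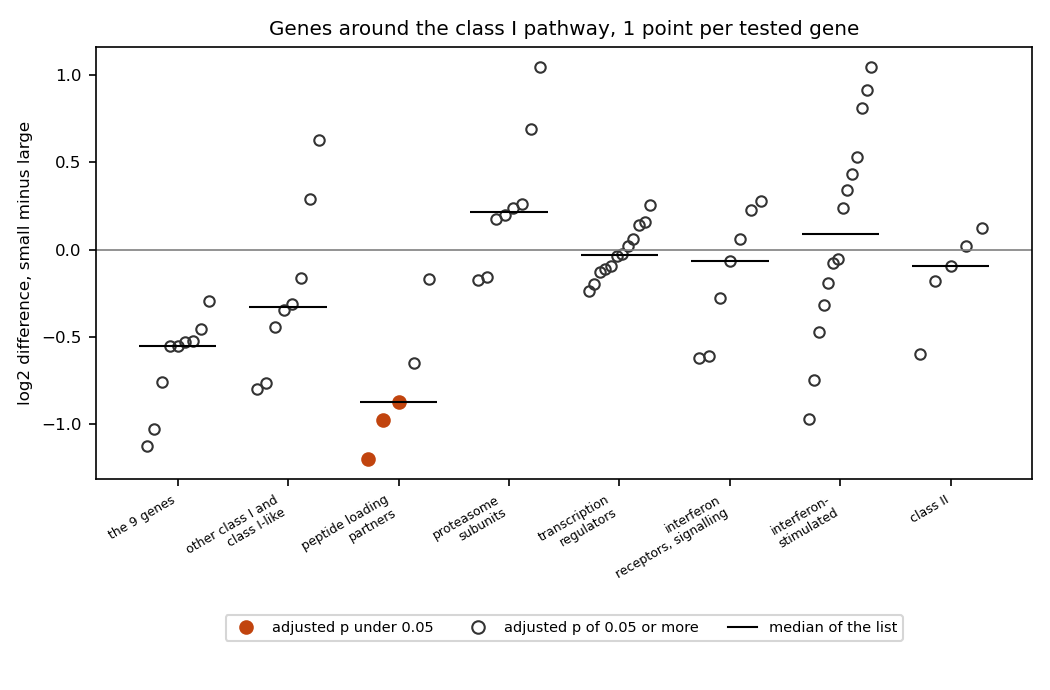
Log2 difference, small minus large, of the 9 genes and of every tested gene in 7 lists around the class I pathway, 1 point per gene, with the list median as a line. Filled points passed at an adjusted p under 0.05; all 3 are peptide loading partners (PDIA3, UGGT1 and CANX), and the proteasome list has its median above 0.

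The genes whose levels over the 8 arrays were most like those of HLA-B, outside the 9, were picked by the root mean square difference of log2 levels, each centred on its own mean. They were SLC3A2, the heavy subunit of amino acid transporters (0.14), the glutamine transporter gene SLC1A5 (0.27) and the surface glycoprotein gene CD109 (0.27), where HLA-B itself varied by 0.79 around its mean. SLC3A2 was at 6.71, 7.32, 7.91 and 7.68 on small arrays 1 to 4 and at 7.42, 8.62, 8.58 and 9.06 on large arrays 1 to 4, with the same low large array 1 as HLA-B. For B2M, which varied by 0.29, they were PLPP3, a lipid phosphate phosphatase gene (0.08), the receptor gene GPR19 (0.09) and the transcription factor gene POU3F2 (0.09). Among the 9 genes, HLA-C was the nearest to HLA-B (0.16), HLA-E was the nearest to B2M (0.19), and TAPBP the nearest to TAP2 (0.21).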

How the data were processed

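Per the labels' protocols and the series design text, 15 ug of biotin-labelled cRNA, made from 1 ug of total RNA, was hybridised for 16 hours, and scans were imported into Rosetta Resolver (version 7.1). The authors' deposited table gives 1 linear intensity for each probe set on each array. The program that wrote it and its background correction are not given in the sources used here. Without the 62 control probe sets, 54613 remained. Values became log2(intensity + 1.814), the 10th percentile, which understates dim changes, and were quantile normalized. Probe sets with a mean above the 40th percentile (3.623) were tested: 32768 probe sets, 14726 genes, each by its brightest probe set with 1 symbol. Symbols were updated by gene ID for 41043 of 41097 probe sets.

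Small and large arrays were compared with limma 3.58.1 (R 4.3.3; variance trend, Benjamini-Hochberg). The number of arrays limits precision (median SE 0.235). The procedure was tested on simulated data with 4 against 4 arrays. It recovered 1 of 67 genes given a log2 change of -0.58, 25 of 67 at -1 and 40 of 66 at -1.5. Of the unchanged genes 2 were called. The members, lists and rules (every probe set of the 9 genes; called list genes, up to 4, otherwise the 2 with the smallest p; the 3 most alike genes) were chosen with earlier results of these data known. Quality, scaling, filter, pairing and left-out arrays were varied.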

Additional observations from a re-analysis of the deposited data

Results flagged for a closer look

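Single arrays stood apart from the other 3 of their fraction by Dixon's test in 9 of 48 groups looked at (24 probe sets in 2 fractions), where chance flags about 1 in 20. Large array 1 was low on HLA-C 216526_x_at (8.48, the others 10.02 to 10.03), on HLA-C 208812_x_at (8.51, the others 9.40 to 9.58) and on HLA-F 204806_x_at (6.44, the others 7.09 to 7.15). Large array 2 was high on HLA-B 208729_x_at (7.59, the others 6.86 to 6.89). Large array 3 was low on HLA-E 217456_x_at (6.77, the others 7.03 to 7.08). Large array 4 was high on TAP2 225973_at (6.65, the others 6.19 to 6.23). Small array 3 was low on B2M 216231_s_at (6.69, the others 8.27 to 8.37). Small array 2 was low on HLA-F 221978_at (3.72, the others 4.36 to 4.46) and on TAP2 204769_s_at (4.31, the others 5.24 to 5.31).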

How the results depend on the processing

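Of 220 values of the 9 genes under 25 alternatives, 206 kept their direction and side of the threshold, 10 passed it and 4 changed sign. Calls over the whole array were less stable. Of 491 probe sets and 293 genes called, 3 and 0 were called on the intensities as deposited, 3 and 0 with median centring and 3 and 0 without the variance trend. There were 1131 and 824 with array weights, 296 and 155 with the 3 prime excess as covariate, 287 and 186 with the _x_at and _s_at kinds left out, 1024 and 593 at an adjusted p under 0.10, and 1148 and 776 without large array 1 and small array 3. With 1 array left out, 49 to 794 probe sets and 62 to 553 genes were called. Of the 24 probe sets and 9 genes described, where 0 and 0 were called, 3 and 2 passed with array weights, 3 and 2 without large array 1 and small array 3, 0 to 3 and 0 to 2 with 1 array left out, and 1 probe set at 0.10. Same-numbered sorts correlated at 0.11, 0.13, 0.23 and 0.01. With 1 of the 4 near 0 and no shared culture or day in the labels, they were not taken as pairs. The first 3 are a hint of pairing from the data. Of the fibroblast markers, some were lowest on number 4 in both fractions and others were not. Whether equal numbers shared a culture was not tested. COL3A1 was at 7.65, 8.55, 6.73 and 4.91 on small arrays 1 to 4 and at 7.97, 8.39, 6.28 and 5.10 on large arrays 1 to 4. LUM and DCN were also lowest on number 4 in both fractions, and POSTN only in the small one. COL1A2 and THY1 were lowest on number 3 in both fractions, and PDGFRA on number 1 in both. COL1A1 was lowest on small array 3 and large array 4, and TWIST1 on small array 1 and large array 2. With same-numbered sorts as a replicate block, 1205 probe sets and 753 genes were called, of these 6 probe sets and 3 genes described here (HLA-B at an adjusted p of 0.00274, HLA-C at 0.00754 and B2M at 0.0453). Each array correlated best with its own number except small array 4 and large array 4.

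With the _x_at and _s_at kinds left out, no probe set remained for HLA-B, HLA-C, B2M and TAP1, and the median of the other 5 genes was 0.179, with HLA-E at 0.352, HLA-F at 0.179 and ERAP1 at 0.904. With the mean of a gene's probe sets, ERAP1 was at 0.19, TAPBP at -0.0433 (-0.53 on its brightest) and HLA-E at -0.129 (-0.55 on its brightest). TAP2 204769_s_at was at -0.121 as deposited, -0.0697 with array weights, -0.104 with the covariate, -0.00804 without large array 1 and small array 3 and -0.273 to 0.273 with 1 array left out. ERAP1 210385_s_at was at -0.00774 with array weights, -0.237 without those 2 arrays and -0.0583 to 0.599 with 1 left out. B2M 216231_s_at was at 0.0547 without those 2 arrays and -0.557 to 0.0217 with 1 left out. The cause of these changes was not tested. Signal limits the 5 probe sets below the filter, which were not tested.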

Other observations

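The genes that lie from HLA-F to TAPBP in the RefSeq order of chromosome 6, the 9 genes left out, had a median log2 difference of 0.00 over 97 tested genes, 47 below and 50 above 0. In each direction 1 was called, a share near the 1.99% of all genes called in either direction. SLC39A7, a zinc transporter gene, was lower in small cells (-1.24 ± 0.26 SE, limma, adjusted p = 0.0286), and AIF1 was higher on its brightest probe set. HLA-F-AS1, the antisense transcript beside HLA-F, was at 7.10 ± 0.48 in small and 6.05 ± 0.34 in large cells (SD, n = 4), with no overlap and a difference of 1.06 ± 0.25 that missed the threshold (limma, adjusted p = 0.0504). These genes were picked after their values were seen.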
